A study of Mus musculus with 2 samples.

Results

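Fibroblasts marked by Pi16 and Cd55 were taken from 2 single-cell RNA libraries of mouse heart and described gene by gene. Members were chosen by their own counts. Counts were of unique molecular identifiers (UMIs, each counting 1 captured RNA molecule). A barcode was a member when it held at least 2 UMIs of Pi16, Cd55, Efemp1, Scara5 and Adgrd1 together. It also had to hold more of these than of either of 2 other marker groups. Those groups were Col8a1, Nox4, Smoc2, Gsta3 and Rgs17, which chose the interstitial fibroblasts used for comparison, and Nkain2, Fbn2, Vit, Gpr39 and Acss3. Members also had at least 200 detected genes, fewer than 4 UMIs of the activation genes Postn, Cilp, Ltbp2 and Meox1, and passed a fibroblast gate. The gate asked for at least 2 UMIs of Pdgfra, Col1a2, Col3a1 and Dcn, under 0.6% of UMIs from Ryr2 and Myh6, and at most 1 UMI each of F13a1 with Adgre1 and of Flt1 with Cdh5. By these rules 418 of 9934 Sham barcodes and 513 of 9931 TAC barcodes were members, 931 of 19865 in all.

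The deposited series set hearts of C57BL/6 mice under pressure overload beside Sham hearts. The overload came from transverse aortic constriction (TAC), in which the aortic arch is tied so that the left ventricle pumps against a narrowed outlet. TAC was performed in male mice at 8 weeks of age and lasted 6 weeks. The Sham operation left the aorta unconstricted, although the series design speaks of uninjured mice, and the labels give neither sex nor age for it. Dissociated cells of 3 to 5 hearts were combined in each library, so each condition was 1 sample, hearts could not be told apart, and no difference between conditions could be tested.

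Fibroblasts of the adventitia, the outer sheath of arteries, are known across organs for the secreted inhibitor-like protein Pi16 and for the complement regulator Cd55, and they are often described as a reservoir population from which other fibroblasts can arise. Interstitial fibroblasts lie between the cardiomyocytes and maintain their matrix. Adventitial matrix is rich in elastic fibres and in hyaluronan, a long sugar polymer that is built at the cell surface from nucleotide sugars. No position in the tissue was measured here, so the name refers to marker genes and not to a location.

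The members held 1074296 UMIs in Sham and 1347767 in TAC, with medians of 2373.5 and 2456 UMIs per cell, close to the 2409.5 and 2399 of interstitial fibroblasts. Ribosomal protein genes made up 0.164% and 0.239% of the members' UMIs, Malat1 7.72% and 8.81%, and mitochondrial genes 1.40% and 1.37%. The 10 cardiomyocyte markers reached 0.232% and 0.188%. Over all barcodes of Sham and TAC, ribosomal protein genes made up 0.154% and 0.184%, Malat1 10.3% and 11.8%, and mitochondrial genes 0.589% and 0.508%. The sources describe dissociated cells, so barcodes are called cells here. Whether they held whole cells or nuclei was not tested. The libraries shared 32 barcode sequences, of which 1 was a member in Sham and 1 in TAC, and none was a member in both. Scrublet marked 7 Sham members and 10 TAC members as doublets, and these were kept. Intervals below are exact 95% intervals that cover counting error only, and levels are UMIs per 10000 UMIs of the cells named.

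Of the genes that chose the members, Pi16 stood at 11.2 UMIs per 10000 in Sham members (10.6 to 11.9) and 11.2 in TAC members (10.7 to 11.8). Pi16 was seen in 71.3% of the Sham members and 69.4% of the TAC members, against 41.6% and 30.7% of interstitial fibroblasts. It was not particular to the members. Activated fibroblasts, with at least 4 UMIs of the activation genes, showed it in 78.2% of cells in Sham and 72.9% in TAC. Its levels there were 8.24 and 6.35. Cd55, which protects cells from complement, was at 3.29 and 3.96 in members and at 0.822 and 0.921 in interstitial fibroblasts. Efemp1, a fibulin of elastic matrix, was at 1.81 and 1.34 against 0.171 and 0.307. Scara5, a ferritin receptor, was at 8.90 and 7.90 in members, but also at 5.58 and 3.92 in the Nkain2, Fbn2 and Vit set, where Pi16 was at 1.25 and 0.707. Adgrd1, an adhesion G protein-coupled receptor, was at 6.87 in Sham members (6.38 to 7.38) and 9.31 in TAC members (8.80 to 9.84). These values follow from the choice of members and support nothing about them.

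**Figure D1:**
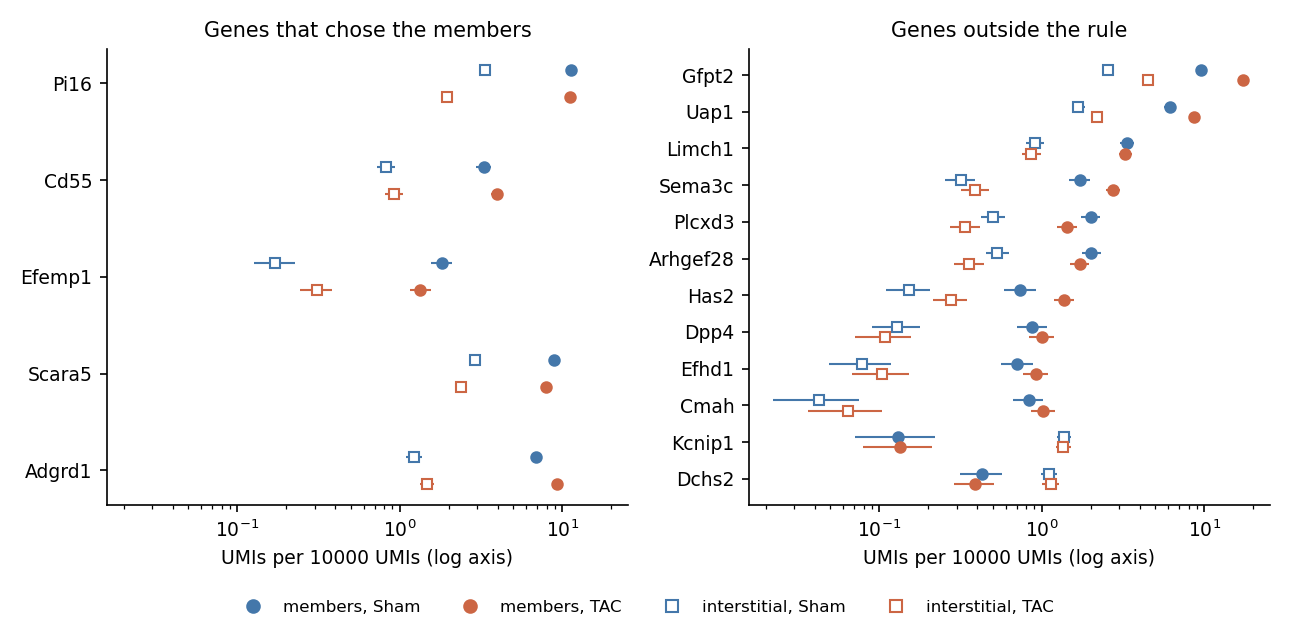
Levels (UMIs per 10000 UMIs, log axis) in members (filled circles) and interstitial fibroblasts (open squares) of the Sham and TAC libraries, with exact Poisson 95% intervals, for the 5 genes that chose the members (left) and 12 genes outside the rule (right). Gfpt2 is at 9.60 and 17.4 in members against 2.55 and 4.49, and Kcnip1 lies the other way at 0.130 and 0.134 against 1.37 and 1.36.

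The marker genes did not all occur together. In Sham, 56 members showed 1 of the 5 genes, 137 showed 2, 118 showed 3, 86 showed 4 and 21 showed all 5. In TAC the numbers were 54, 145, 167, 122 and 25. Pi16 and Cd55 were seen together in 140 Sham members (33.5%) and 197 TAC members (38.4%), and neither was seen in 82 (19.6%) and 95 (18.5%), which entered through Scara5, Adgrd1 or Efemp1. The members just inside the threshold, with 2 marker UMIs, numbered 48 and 49, and they were shallower, at medians of 1475 and 1826 UMIs. Just outside it, 20 and 26 barcodes had 1 marker UMI and no UMI of either other group. With 2 or more marker UMIs, 95 and 94 barcodes tied with another group. A further 655 barcodes in Sham (30.2% of gated fibroblasts) and 516 in TAC (23.7%) held 2 or more marker UMIs but more of another group. These outnumbered the members in each library.

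A list of 26 genes known from adventitial and universal fibroblasts of other tissues, none of them in the rule, was summed in each cell. The list was chosen with earlier results of these data known, so its values describe the members and do not test their identity. Its median was 72.5 UMIs per 10000 over Sham members and 97.2 over TAC members, and 46.5 and 51.8 over interstitial fibroblasts. The quartiles of members lay at 45.9 and 106.6 in Sham and at 64.7 and 134.7 in TAC, and single members ranged from 0 to 288 and from 0 to 345. Members and interstitial fibroblasts overlapped widely cell by cell. Over summed cells, members with 2 marker UMIs stood at 49.0 (44.3 to 54.2) in Sham and 70.4 (65.0 to 76.1) in TAC, while members with 4 or more stood at 91.2 and 115.6. Members with both Pi16 and Cd55 were at 102.7 and 132.7, and members with neither at 65.5 and 69.7, beside 51.3 and 57.9 in interstitial fibroblasts.

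**Figure D2:**
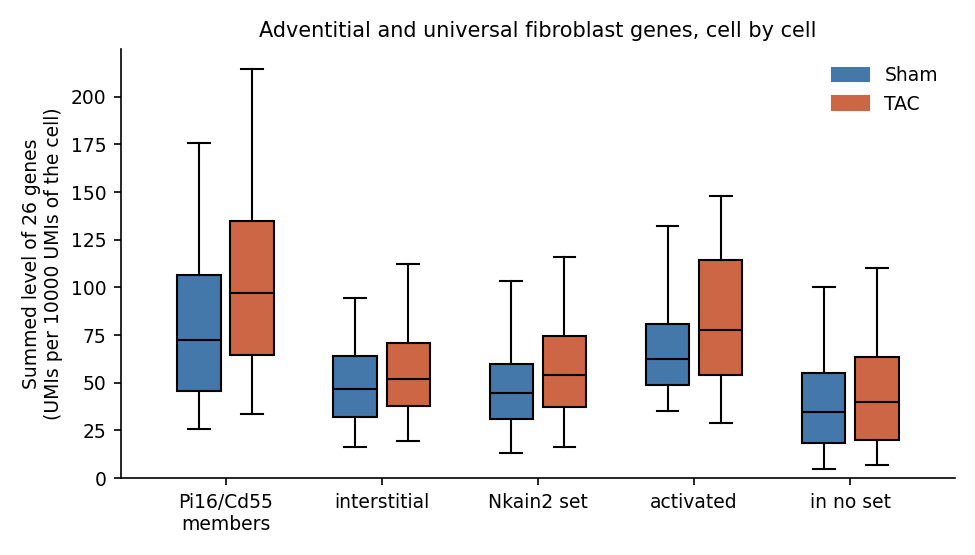
Summed level of the 26 adventitial and universal fibroblast genes per cell (UMIs per 10000 UMIs of the cell) in 5 sets of gated fibroblasts of the Sham and TAC libraries. Boxes span the quartiles with a line at the median and whiskers reach the 5th and 95th percentiles of cells; the medians of members are 72.5 and 97.2, and those of activated fibroblasts 62.5 and 77.8.

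The gated fibroblasts were also clustered without the genes of the rule and without mitochondrial genes. Of the 931 members, 496 (53.3%) fell into 1 of 16 clusters, where they made up 63.3% of its 783 cells, beside 21.4% of all 4344 gated cells. That cluster also held 189 interstitial fibroblasts and 19 cells of the Nkain2, Fbn2 and Vit set, and it was led by Gfpt2, Ackr3, Uap1, Sema3c and Has2os. No other cluster held more than 8.16% of the members. In the libraries clustered alone, the cluster with most members held 142 of 418 in Sham (34.0%) and 243 of 513 in TAC (47.4%), and members made up 64.3% and 70.8% of those clusters. The other members were spread over the remaining clusters, most of which held more interstitial cells than members.

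A few members carried the genes of mesothelium, the cell sheet that covers the heart. At least 2 UMIs of 9 mesothelial markers were found in 6 Sham members (1.44%) and 9 TAC members (1.75%), against 1 and 0 interstitial fibroblasts, and without the rule's genes 15 members fell into a cluster of 26 cells led by Muc16, Pkhd1l1, Gpm6a and Wt1. The 6 and 9 members with these markers held all 57 and all 65 of the members' Muc16 UMIs, 16 of the 194 and 38 of the 180 Efemp1 UMIs, and 1 and 0 Pi16 UMIs. Without them, a setting chosen after the data were seen, members were 19.0% of gated fibroblasts in Sham and 23.2% in TAC, and the value without them follows for Muc16, Grip1, Il1rapl1 and Rbfox1. Summed markers of macrophages were at 0.614 and 0.646 and those of smooth muscle at 1.07 and 1.02 in members. The endothelial list stood at 5.95 and 4.96, of which the angiopoietin receptor Tek made up 4.30 and 3.96.

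Against interstitial fibroblasts, members were high in Dpp4, Sema3c and genes of hyaluronan synthesis, and low in Kcnip1, Thbs1 and Adam12. The contrast is the one the rule was built on, so its values describe the members and were not tested. Of 8406 genes with at least 50 UMIs over both sets in each library, 63 were at least 2-fold higher in members in both libraries (0.749%) and 32 were at 0.5-fold or less in both (0.381%). The median ratio over all genes compared was 0.998 in Sham and 1.002 in TAC. Of the 63 genes, 38 were also at least 2-fold higher against the Nkain2, Fbn2 and Vit set in both libraries, and of the 32 lower genes 15 were also at 0.5-fold or less.

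Gfpt2, Uap1, Ugdh and Has2, which lead to hyaluronan, were 4 of the 63 genes. Gfpt2, which commits fructose 6-phosphate to amino sugars, was at 9.60 UMIs per 10000 in Sham members and 17.4 in TAC members, against 2.55 and 4.49 in interstitial fibroblasts. Its ratios were 3.76 (3.42 to 4.15) and 3.86 (3.596 to 4.15), and it was seen in 58.9% and 77.8% of members. Uap1, which makes UDP-N-acetylglucosamine, was at 6.13 and 8.59 against 1.68 and 2.20, with ratios of 3.65 (3.24 to 4.12) and 3.91 (3.53 to 4.34). Ugdh, which makes UDP-glucuronic acid, was at 1.38 and 2.29 against 0.445 and 0.634, with ratios of 3.10 (2.43 to 3.96) and 3.62 (2.98 to 4.41). Has2, the synthase that joins both sugars, was at 0.735 and 1.37 against 0.153 and 0.275, with ratios of 4.81 (3.28 to 7.14) and 4.99 (3.76 to 6.68).

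The other enzymes of the route, chosen after these values were seen, did not all stand out. Gfpt1, the paralogue of Gfpt2, had ratios of 0.995 (0.753 to 1.30) and 0.646 (0.498 to 0.831). Pgm3 had 1.33 (0.937 to 1.88) and 1.16 (0.814 to 1.63), Gnpnat1 had 1.80 and 0.890 on 22 UMIs in the members of each library, and Ugp2 had 1.47 (1.28 to 1.69) and 1.38 (1.23 to 1.55). The other synthases were sparse, with 7 and 32 UMIs of Has1 and 6 and 7 of Has3. Tnfaip6, which modifies hyaluronan, was higher in members at ratios of 2.24 and 2.92. Has2os, transcribed opposite Has2, was at ratios of 2.50 and 3.24, and whether counting used the strand is not given in the sources used here, so the reads of the pair cannot be told apart. In the list of 22 proteoglycan and hyaluronan genes, 14 were compared, 3 of them higher (Has2, Tnfaip6 and Ugdh) and 0 lower. The list's median ratios were 1.12 and 1.03. Of all 8406 genes compared, 0.749% were higher and 0.381% lower.

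**Figure D3:**
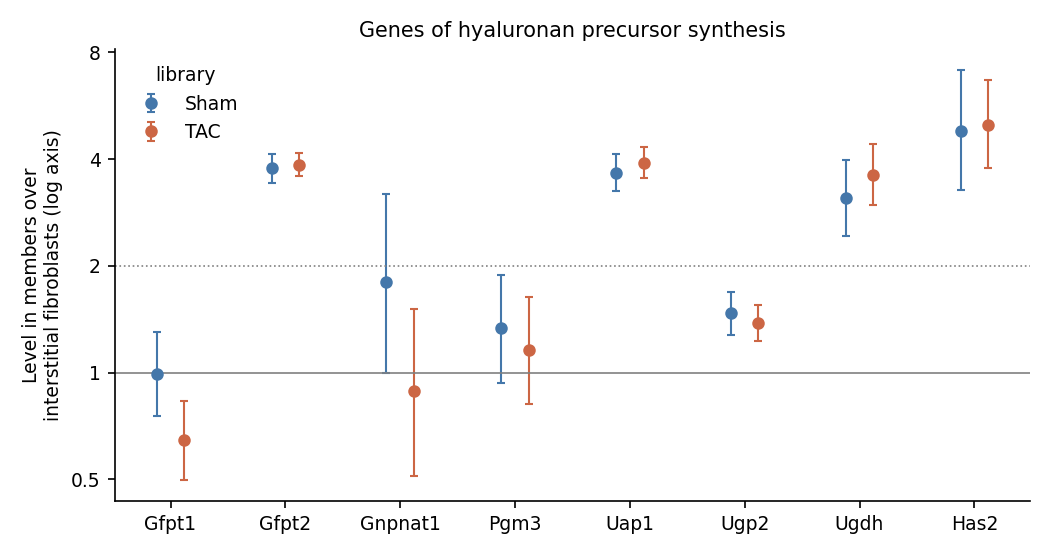
Ratio of the level in members to the level in interstitial fibroblasts (log axis) in the Sham and TAC libraries, with exact conditional binomial 95% intervals, for 8 genes of hyaluronan precursor synthesis in the order of the route. The solid line marks 1 and the dotted line 2; Gfpt2, Uap1, Ugdh and Has2 lie above 2 in both libraries, and Gfpt1, Gnpnat1, Pgm3 and Ugp2 do not.

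The RefSeq promoter windows of Pi16 and of the precursor genes Gfpt2, Uap1 and Ugdh are shown because these genes are high in the members and lie on different chromosomes. Each is the 250 bases before the annotated start in GRCm38.p6, 5′ to 3′, and 6 of the 9 genes looked up (the 5 marker genes, Gfpt2, Uap1, Ugdh and Has2) were in the table. Capitals mark matches on either strand to the TATA box (TATAAA), to the CCAAT box, to the GC box (GGGCGG) or to the AP-1 letters (TGANTCA).
Pi16, chr17:29318632-29318881, plus strand: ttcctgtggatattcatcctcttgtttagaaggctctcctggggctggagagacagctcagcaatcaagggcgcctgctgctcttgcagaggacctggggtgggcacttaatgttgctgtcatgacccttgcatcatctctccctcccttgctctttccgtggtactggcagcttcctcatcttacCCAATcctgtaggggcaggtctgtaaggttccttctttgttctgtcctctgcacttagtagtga
Gfpt2, chr11:49793905-49794154, plus strand: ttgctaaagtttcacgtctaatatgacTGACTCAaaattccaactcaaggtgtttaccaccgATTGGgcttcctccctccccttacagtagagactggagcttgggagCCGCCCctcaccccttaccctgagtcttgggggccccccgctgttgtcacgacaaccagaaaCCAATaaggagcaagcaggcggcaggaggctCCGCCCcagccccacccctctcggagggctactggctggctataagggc
Uap1, chr1:170174965-170175214, minus strand: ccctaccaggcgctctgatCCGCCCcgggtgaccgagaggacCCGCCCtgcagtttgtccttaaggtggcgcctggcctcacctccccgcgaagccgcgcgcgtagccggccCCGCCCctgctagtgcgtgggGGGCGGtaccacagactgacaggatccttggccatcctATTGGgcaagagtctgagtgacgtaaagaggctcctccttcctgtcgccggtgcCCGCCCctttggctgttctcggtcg
Ugdh, chr5:65435843-65436092, minus strand: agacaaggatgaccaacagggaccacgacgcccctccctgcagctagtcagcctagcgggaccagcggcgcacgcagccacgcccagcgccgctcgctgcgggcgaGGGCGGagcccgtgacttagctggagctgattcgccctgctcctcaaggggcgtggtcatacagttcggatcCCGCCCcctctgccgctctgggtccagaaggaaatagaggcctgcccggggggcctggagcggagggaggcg
Uap1 holds 5 GGGCGG matches and Gfpt2 and Ugdh 2 each, and Pi16 holds none, while 32.7% of 32851 promoter windows hold at least 1. CCAAT is matched 2 times in Gfpt2 and 1 time each in Uap1 and Pi16 (33.8% of windows), and TGANTCA, the letters bound by AP-1, 1 time in Gfpt2 (6.75%). TATAAA is matched in none of the 4 (12.4%). Of the marker genes whose windows were found but are not printed, Cd55 holds 2 GGGCGG matches. Efemp1 holds 1 GGGCGG and 1 TGANTCA match. The G and C content is 52.4% in Pi16, equal to the median of all windows, and 57.6%, 67.2% and 69.2% in Gfpt2, Uap1 and Ugdh. These are matches of letters and not measured binding.

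Genes of the adventitial and universal list were higher in members. Of 26 genes 21 were compared, 9 were called higher and 0 lower, and the median ratios were 1.79 in Sham and 1.87 in TAC. Over all 8406 genes compared, 0.749% were called higher and 0.381% lower. As said above, the list was not chosen independently of these data. All 21 were above 1 in Sham and 20 in TAC. Dpp4, a surface peptidase, was at 0.875 and 1.002 against 0.128 and 0.108, with ratios of 6.83 (4.61 to 10.3) and 9.30 (6.12 to 14.6). Sema3c, a secreted semaphorin, was at 1.71 and 2.75 against 0.317 and 0.391, with ratios of 5.41 (4.18 to 7.05) and 7.03 (5.61 to 8.87). Against the Nkain2, Fbn2 and Vit set Dpp4 had ratios of 2.13 and 1.49, and Sema3c 2.48 and 3.36. Limch1, an actomyosin regulator, had ratios of 3.68 and 3.80, and Ackr3, a scavenging chemokine receptor, 2.50 and 3.01. Ly6a, Emilin2 and Igfbp6 completed the 9 genes with Gfpt2 and Ugdh, at ratios of 2.28 to 2.54 in Sham and 2.50 to 2.98 in TAC. Members of the list that were not called included Cd34 (1.92 and 1.75), Pcolce2 (1.79 and 1.96), Fbn1 (1.43 and 1.87), Tnxb (1.37 and 1.25) and Entpd2 (1.01 and 1.09).

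Further genes among the 15 highest ratios were seen in a minority of members. Cmah, a hydroxylase of sialic acid, was at 0.828 and 1.02 against 0.0427 and 0.0638, and it was seen in 7.66% and 9.94% of members. Efhd1, a mitochondrial calcium-binding protein, was at 0.707 and 0.920 against 0.0782 and 0.104, in 10.8% and 16.4% of members. Tmem100, a target of BMP signalling in endothelium, had ratios of 6.81 and 10.1 on 39 and 103 UMIs. Car8, Plcxd3 and Arhgef28 had ratios of 3.79 to 5.89 in Sham and 4.23 to 5.38 in TAC. Muc16 had ratios of 149 (25.7 to 5995) and 121 (21.0 to 4850), each against 1 UMI in interstitial fibroblasts, and members without mesothelial markers had 0 UMIs of it. Grip1 went from 3.66 and 5.27 to 0.265 and 0.422 without them, and Il1rapl1 from 5.19 and 5.58 to 2.65 and 2.14. Against the Nkain2, Fbn2 and Vit set, all members had ratios of 0.394 and 0.321 for Il1rapl1 and 0.694 and 0.719 for Muc16. Grip1 was at 1.31 and 0.994 there, Cmah at 11.1 and 3.30, and Efhd1 at 19.0 and 50.7.

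The 10 lowest ratios were led by Kcnip1, Thbs1 and Adam12. Kcnip1, a potassium channel subunit, was at 0.130 and 0.134 in members against 1.37 and 1.36, with ratios of 0.0952 (0.0515 to 0.162) and 0.0985 (0.0577 to 0.158). Thbs1, which can activate TGF-beta, had ratios of 0.190 and 0.198 on 5 and 10 UMIs in members, and Adam12, a metalloprotease of activated mesenchyme, 0.225 and 0.285. Against the Nkain2, Fbn2 and Vit set, Kcnip1 was at 0.998 (0.377 to 2.92) and 0.409 (0.201 to 0.834), Thbs1 at 2.496 (0.279 to 118) and 1.02 (0.295 to 4.47), and Adam12 at 0.182 (0.0699 to 0.423) and 0.171 (0.0867 to 0.319). Ccn5, a matricellular protein, was at 0.251 and 0.119 against 0.740 and 0.526. Cyp7b1, Adm, Egflam, Dchs2, Pgpep1l and Fblim1 had ratios of 0.357 to 0.393 in Sham and 0.295 to 0.380 in TAC. In the list of 18 activation genes 6 were compared, Thbs1 was lower and 0 were higher, and the median ratios were 0.621 and 0.655. The activation limit of the rule bears on that list. Of all 8406 genes compared, 0.381% were lower and 0.749% higher.

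Few genes of the matrix lists were called between the sets, beside 0.749% higher and 0.381% lower of all 8406 genes compared. Of 5 fibrillar collagens compared 0 were called, with median ratios of 0.804 and 0.855, and of 15 basement membrane genes 0 were called, with medians of 0.900 and 0.912. Of 16 elastic fibre genes Emilin2 was higher and Mfap4, at 0.492 and 0.304, lower. The list of 12 genes known from other heart fibroblasts, among them Tcf21 and Col15a1, had 9 genes compared, 0 called, and medians of 0.838 and 0.807. Pericyte markers had medians of 0.556 and 0.522 over 4 genes.

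Members were 19.3% of 2171 gated fibroblasts in Sham (17.6 to 21.0) and 23.6% of 2173 in TAC (21.8 to 25.5). Interstitial fibroblasts were 49.4% (47.3 to 51.5) and 44.4% (42.3 to 46.5). Genes of the rule themselves differed between the libraries: Nox4 in interstitial fibroblasts was at 4.93 in Sham and 2.50 in TAC, and Adgrd1 was higher in TAC members as given above. Other rule genes, kept in the setting below, differed as well. Gsta3 in interstitial fibroblasts was at 2.37 and 3.06, Rgs17 at 3.28 and 2.65, and Pi16 at 3.33 and 1.95. In TAC members Efemp1 and Scara5 were lower and Cd55 higher, as given above. With Nox4 and Adgrd1 left out of the rule, a setting chosen after the data were seen, members were 17.3% in Sham (15.7 to 18.9) and 18.5% in TAC (16.9 to 20.2), and the intervals overlapped. With every barcode thinned to 1000 UMIs the shares were 15.7% (13.9 to 17.6) and 18.6% (16.8 to 20.6), which also overlapped. Overlap of separate intervals does not show that the shares were equal. With a marker sum of 3 or more the shares were 17.04% and 21.4%. Each share is of 1 library, and what set the difference was not tested.

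**Figure D4:**
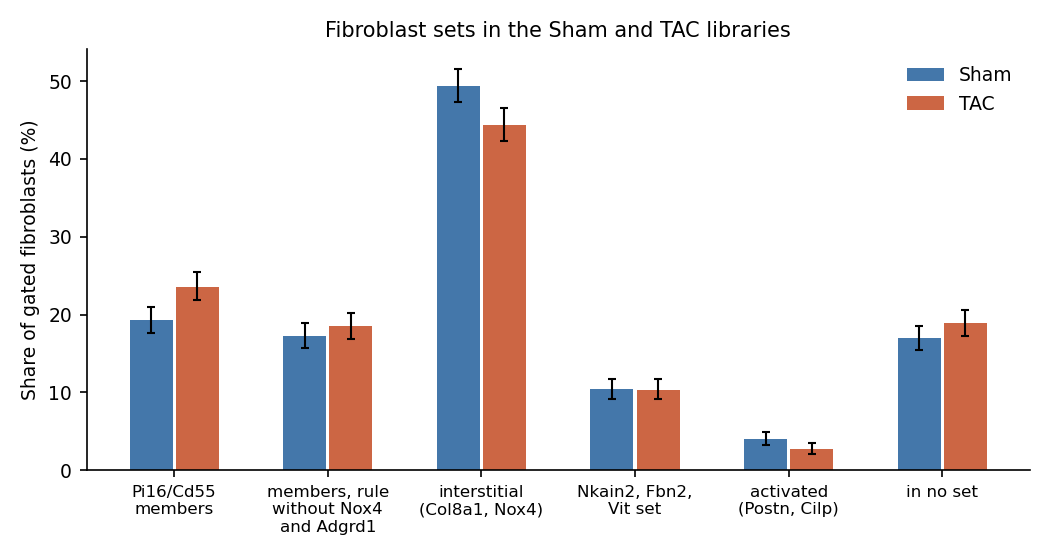
Share of gated fibroblasts (%) in each set in the Sham and TAC libraries, with exact Clopper-Pearson 95% intervals; the second pair of bars gives the members chosen without Nox4 and Adgrd1. The shares of members are 19.3% and 23.6% by the rule and 17.3% and 18.5% without those 2 genes.

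Between the libraries, TAC members were higher in Apoe, Aldh1a2, C3 and immediate-early genes, and lower in Zbtb16, Ptgds and Pdk4. The ratios compare 2 libraries and not the conditions. Of 7189 genes with at least 50 UMIs over both libraries, 229 were at least 2-fold higher in TAC members (3.19%) and 77 were at 0.5-fold or less (1.07%), and the median ratio was 0.996. Most of these differences went the same way in other cells of the same libraries. Of the 229 higher genes 214 were above 1 in interstitial fibroblasts too and 95 at least 2-fold higher. Of the 77 lower genes 64 were below 1 there and 10 at 0.5-fold or less. The median ratio in interstitial fibroblasts was 1.80 over the higher genes, 0.739 over the lower genes and 0.996 over all genes compared. Gene models without a name made up 102 of the 229 higher genes (44.5%), 2 of the 77 lower genes (2.60%) and 5.68% of all genes compared. Ribosomal protein genes, summed, were at a ratio of 1.45 (1.37 to 1.54) in members and 1.44 in interstitial fibroblasts. Their part in the results that follow was not tested.

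Apoe, a lipid carrier, was at 0.540 in Sham members and 1.77 in TAC members, a ratio of 3.28 (2.46 to 4.46), with 2.96 (2.51 to 3.51) in interstitial fibroblasts. C3, the central complement component, was at 1.79 and 3.86, a ratio of 2.16 (1.83 to 2.56), with 2.88 (2.45 to 3.398) in interstitial fibroblasts. Of 8 complement genes compared, C3, C1ra (2.20) and C4b (2.09) were higher and Csmd1 lower, and the median ratio was 1.05. Among all 7189 genes compared, 3.19% were higher and 1.07% lower. The list of 18 complement genes summed to 28.8 and 27.7, a ratio of 0.961 (0.916 to 1.008). Csmd1 rests on 1 Sham cell that held 60 of 91 UMIs, and without the top cell of each library its ratio was 0.770 (0.450 to 1.31) in place of 0.315. The secreted protein Srpx had 5 UMIs in Sham members and 46 in TAC members, a ratio of 7.33 (2.93 to 23.6), with 1.29 (0.877 to 1.91) in interstitial fibroblasts. Aldh1a2, which makes retinoic acid, was at 0.326 and 1.16, a ratio of 3.55 (2.45 to 5.28), with 1.64 (1.31 to 2.07) in interstitial fibroblasts. The differences between members and interstitial fibroblasts in these ratios were not tested.

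Immediate-early genes, which cell stimulation and also tissue dissociation induce, were higher in TAC members, and the part of dissociation was not tested. Of 10 compared, Egr1, Junb, Nr4a1 and Btg2 were at least 2-fold higher and 0 were lower, with a median ratio of 1.37. Over all 7189 genes compared, 3.19% were higher and 1.07% lower. The list of 23 genes summed to 4.42 and 7.18, a ratio of 1.62 (1.45 to 1.82). The sum was at 1.31 (1.21 to 1.42) in interstitial fibroblasts. Egr1 had 9 UMIs in 5 Sham members and 57 in 24 TAC members, a ratio of 5.05 (2.48 to 11.6), which became 2.41 under the rule without Nox4 and Adgrd1. Its level was 0.0838 and 0.423 in members and 0.437 and 0.574 in interstitial fibroblasts. In the Nkain2, Fbn2 and Vit set it was at 0.653 and 0.689. The level in TAC members was thus not above that of these other fibroblasts. Without Egr1, a setting chosen after the data were seen, the list sum was at 1.56 (1.39 to 1.75). A cluster led by Gm17268, Ccl2 and Cxcl1, with Egr1 and Junb among its leading genes, held 0 Sham members and 12 TAC members, and its part in these ratios was not tested. Gsdme, Enah, Lrrc4, Snhg8 and Fam227b had ratios of 2.57 to 3.53 in members and 1.71 to 2.70 in interstitial fibroblasts. The antisense models Far1os, Pard3bos1, Egfros and Cd55os had ratios of 2.40 to 4.34. Cd55os, at 9 and 49 UMIs, lies opposite the marker gene Cd55, whose own level was 3.29 and 3.96, and without known strand use the reads of the pair cannot be told apart. Rbfox1, a splicing factor, had a ratio of 2.04 (1.83 to 2.28), and 1 Sham member held 151 of 449 UMIs and 1 TAC member 244 of 1151. The ratio was 2.43 (2.13 to 2.78) without the top cell of each library and 0.780 without the members with mesothelial markers.

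Some of the genes that marked members were themselves at other levels in TAC. Pi16, at 11.2 in members of both libraries, helped to choose them, so it is no reference for these ratios. In activated fibroblasts, which were not chosen by Pi16, it was at 8.24 in Sham and 6.35 in TAC. Gfpt2 had a ratio of TAC to Sham of 1.81 (1.68 to 1.95) in members and 1.76 in interstitial fibroblasts. Has2 had 1.87 (1.43 to 2.46) in members, 1.80 (1.21 to 2.70) in interstitial fibroblasts and 3.46 outside the fibroblast gate. Ugdh had 1.66 (1.36 to 2.04) in members and 1.43 (1.12 to 1.82) in interstitial fibroblasts, and Uap1 1.40 (1.27 to 1.54) and 1.31 (1.16 to 1.48). None of the 4 was past 2-fold in members. The 26 adventitial and universal genes summed to 86.0 and 108.5, a ratio of 1.26 (1.23 to 1.29), with 1.13 (1.10 to 1.15) in interstitial fibroblasts. Of 22 compared, 1 was called higher, Cd248 at 2.33 (1.46 to 3.83), beside 3.19% of all 7189 genes compared. Members were placed unevenly among the clusters of both libraries: the cluster led by Gfpt2 held 174 of the Sham members (41.6%) and 322 of the TAC members (62.8%), and the genes that lead that cluster are themselves among those given here. The part of this placement in the ratios of TAC to Sham was not tested. Sema3c was at a ratio of 1.60, Ackr3 at 1.61 and Fbn1 at 1.33, while Limch1 was at 0.976 and Mfap5 at 0.942. Dpp4 was at 1.14 (0.873 to 1.51). Ret, a receptor tyrosine kinase called higher in members than in interstitial fibroblasts at 2.39 and 2.80 (named after its values were seen), was at 2.22 (1.65 to 3.02) in TAC members over Sham members, with 1.90 (1.39 to 2.60) in interstitial fibroblasts and 2.30 outside the fibroblast gate.

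**Figure D5:**
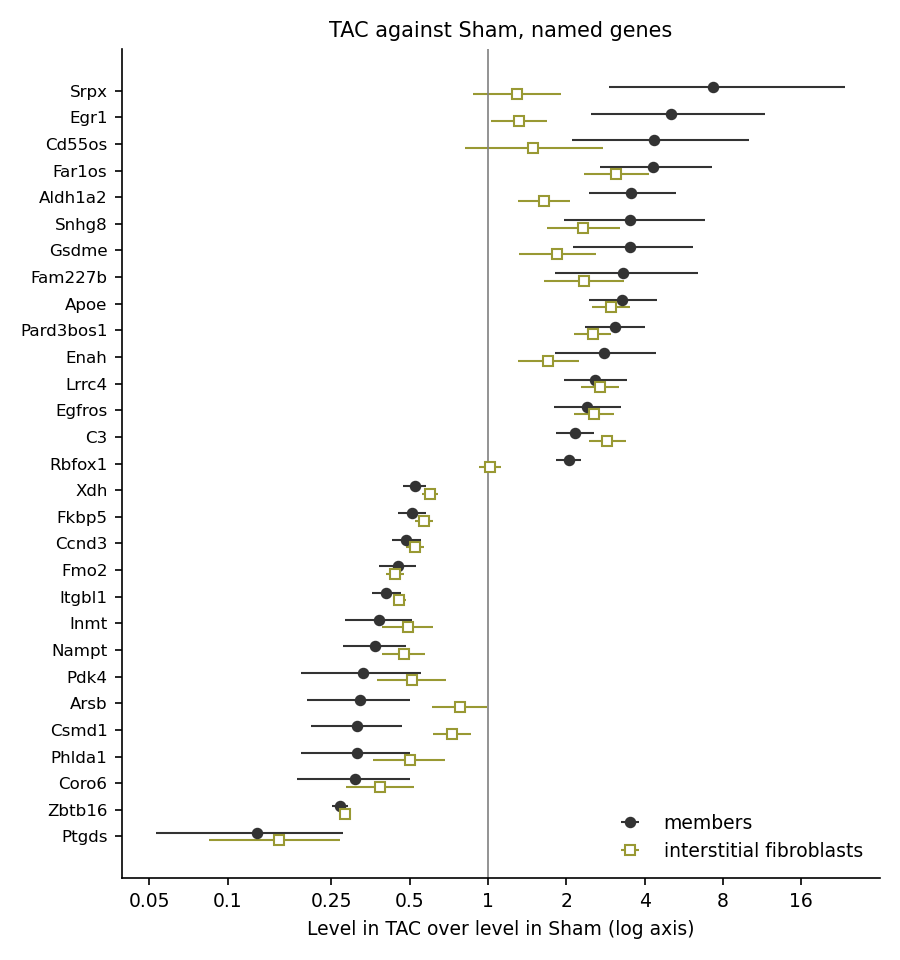
Ratio of the level in TAC to the level in Sham (log axis) for the named genes in members (filled circles) and interstitial fibroblasts (open squares), with exact conditional binomial 95% intervals. Zbtb16 is at 0.269 in members and 0.281 in interstitial fibroblasts, and Srpx at 7.33 and 1.29.

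Zbtb16, a zinc finger factor strongly induced by glucocorticoids, was at 28.6 in Sham members and 7.71 in TAC members, a ratio of 0.269 (0.251 to 0.289). It was seen in 402 of 418 and 365 of 513 members, and its ratio was 0.281 (0.267 to 0.297) in interstitial fibroblasts and 0.357 outside the fibroblast gate. Fkbp5, a chaperone of the glucocorticoid receptor, was at 6.27 and 3.21, a ratio of 0.511 (0.452 to 0.577), and Pdk4, a kinase that restrains glucose oxidation, had 53 and 22 UMIs. Of 13 genes compared in the list of 17 glucocorticoid-responsive genes, Zbtb16 and Pdk4 were called lower and 0 higher, with a median ratio of 0.835. The shares over all 7189 genes compared were 1.07% lower and 3.19% higher. The list summed to 53.9 and 30.1, a ratio of 0.559 (0.537 to 0.582), and the ratio was 0.566 (0.550 to 0.583) in interstitial fibroblasts. Zbtb16 held 53.1% of the list's UMIs in Sham members and 25.6% in TAC members. Without it, a setting chosen after the data were seen, the sum was 25.3 and 22.4, a ratio of 0.886 (0.841 to 0.934), with 0.857 (0.826 to 0.889) in interstitial fibroblasts.

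Ptgds, a prostaglandin D synthase, had 49 UMIs in Sham members and 8 in TAC members, a ratio of 0.130 (0.0532 to 0.277), with 0.157 in interstitial fibroblasts. Itgbl1, an integrin-like secreted protein, was at 6.92 and 2.82, Fmo2, a flavin monooxygenase, at 4.06 and 1.83, Ccnd3, a D-type cyclin, at 5.96 and 2.89, and Xdh, which makes uric acid, at 8.71 and 4.56. Their ratios were 0.408 to 0.524 in members and 0.439 to 0.597 in interstitial fibroblasts. Nampt, Arsb, Phlda1, Coro6 and Inmt had ratios of 0.309 to 0.382 in members and 0.386 to 0.781 in interstitial fibroblasts.

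Few matrix genes passed 2-fold between the libraries. Col4a6 was higher and Agrn lower among 15 basement membrane genes compared. Prg4 was higher among 14 proteoglycan and hyaluronan genes, and Adamts1 and Mmp3 among 22 genes of the matrix protease list. Of 15 elastic fibre genes and 7 other collagens 0 were called. Over all 7189 genes compared, 3.19% were higher and 1.07% lower. Of 5 fibrillar collagens compared 0 were called, with a median ratio of 1.02, and Col1a1 was at 1.02 and 1.13, a ratio of 1.11 (0.863 to 1.43). Fn1, fibronectin, was the gene called higher among 5 activation genes compared, at 16 and 47 UMIs and a ratio of 2.34 (1.30 to 4.42), and it was at 0.691 in interstitial fibroblasts. Basement membrane genes summed to 83.1 and 70.4, a ratio of 0.847 (0.823 to 0.872), in which Lama2, the laminin of muscle and mesenchyme, went from 35.4 to 25.6. Cell cycle genes gave 54 and 55 UMIs in all members together, too few to compare gene by gene.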

How the data were processed

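Dissociated heart cells of 1 Sham and 1 TAC library were sequenced by droplet capture with a 10x 3-prime kit (v3 by the labels, v2 by the study's methods). The authors made UMI tables of genes by barcodes and deposited raw counts that were not normalized (Cell Ranger 7.1.0 by the submitters' notes and file headers, an earlier version by the methods). Genome build, strand use and intron counting are not given in the sources used here. The members and gene lists were chosen with earlier results of these data known.

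Here the rule was applied to the counts of each barcode with Python 3.11.15, numpy 2.4.6, scipy 1.17.1 and pandas 2.3.3, and counts were summed over members. No mitochondrial limit was set and doublets were kept. Levels are counts per 10000, and intervals are exact: Poisson for levels, Clopper-Pearson for shares and conditional binomial for ratios. Genes needed 50 UMIs over the cells compared. With 1 library per condition no test was run. Clusters were made with scanpy 1.11.5 (Leiden, 2000 variable genes, 30 components, 15 neighbours, resolution 1, seed 1). Named genes were the 15 highest and 10 lowest ratios of members to interstitial fibroblasts, ranked by the less extreme library, the 15 highest and 15 lowest of TAC to Sham by the interval end nearest 1, and genes of the lists, leaving out mitochondrial, hemoglobin and rule genes and unnamed models; 1 of the 15 lowest is not reported here. The steps were tested on simulated data. Alternatives are given in the closing section.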

Additional observations from a re-analysis of the deposited data

Results flagged for a closer look

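The 12 genes known from other heart fibroblasts, summed, went in opposite directions in the 2 cell sets. The ratio of TAC to Sham was 0.871 (0.831 to 0.913) in members and 1.07 (1.04 to 1.09) in interstitial fibroblasts. The difference between these ratios was not tested, since each condition is 1 library. Abca8a, a lipid transporter that makes up most of the sum, was at 22.1 in Sham members and 17.6 in TAC members, a ratio of 0.796 (0.752 to 0.843), with 1.02 in interstitial fibroblasts. The opposite directions rest on that gene: without Abca8a, a setting chosen after the data were seen, the sum went from 9.36 to 9.81 in members, a ratio of 1.05 (0.964 to 1.14), and the ratio was 1.19 (1.13 to 1.25) in interstitial fibroblasts. Gene by gene, 5 of the 8 compared in members were above 1, with a median ratio of 1.22.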

How the results depend on the processing

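No paired analysis was possible because Sham and TAC are single libraries, and no replicate could be left out. The shares of members, 19.3% in Sham and 23.6% in TAC, became 17.04% and 21.4% with a marker sum of 3 or more, 15.7% and 18.6% after thinning to 1000 UMIs (which left out 12 and 6 members and other shallow barcodes), and 17.3% and 18.5% without Nox4 and Adgrd1. The 63 genes higher and 32 lower in members than in interstitial fibroblasts became 18 and 6 after thinning, 166 and 145 at 1.5-fold, and 40 higher with at least 100 UMIs, and 131 were lower against all other gated barcodes. The 229 genes higher and 77 lower in TAC became 57 and 32 after thinning, 695 and 430 at 1.5-fold, and 86 and 25 with at least 100 UMIs. Thinning and the UMI minimum leave fewer genes to compare. The remaining 50 of 68 such values stayed within the interval of the share or within 1.5 times the count. Of 907 ratios of named genes, 838 stayed inside their interval, 62 left it in the same direction, and 7 crossed 1. Those were Muc16 (0 and 0), Grip1 (0.265 and 0.422) and Rbfox1 (0.780) without members that carry mesothelial markers, and Grip1 in Sham (0) and Csmd1 (3.90) after thinning. The sum of the other heart fibroblast genes in members, at 0.871, became 1.05 without Abca8a. The settings without mesothelial markers, without Nox4 and Adgrd1 and without single genes of a list were chosen after the data were seen. At most 25% mitochondrial UMIs left out no member.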
